A study of Mus musculus with 8 samples.

Results

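The 43 genes described here are cell proliferation genes, chosen by name for their known function and read in pituitary gonadotropes, the endocrine cells that make luteinizing hormone and follicle-stimulating hormone. They occupy 45 of the 55523 entries of the gene count table, because *Rb1* has 3 entries, of which 2 were at 0 in every sample. They fall into 5 roles, namely 5 G1 cyclins and kinases, 4 genes of entry into S phase, 10 genes of DNA replication, 19 mitotic genes and 5 inhibitors. Gonadotropes were the EGFP-positive cells sorted by fluorescence-activated cell sorting from pituitary glands of Ad4BP-BAC-EGFP mice, in which EGFP is driven by the regulatory region of *Nr5a1*, also called Ad4BP. RNA was sequenced from 4 female and 4 male samples, and the females and males share this genotype and received no stated treatment. The age of these mice, and whether a sample is 1 animal or a pool, are not given in the sources used here, so the p-values measure only the spread between these samples, which may be technical. The study excluded male replicate 1 because its expression pattern differed from that of the other males. Its values are therefore given apart, and the sexes were compared as male replicates 2 to 4 against female replicates 1 to 4.

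Cells enter the division cycle when D-type cyclins activate CDK4 and CDK6, which phosphorylate the retinoblastoma protein and release E2F factors. E2F factors switch on cyclin E, the MCM helicase and the nucleotide synthesis enzymes of S phase, and a later wave of mitotic genes follows through FOXM1, B-MYB and the MuvB complex. Inhibitors of the INK4 and CIP/KIP families hold cells out of the cycle, and endocrine cells of the adult pituitary are known to divide rarely.

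The total count was between 18774578 and 31302588 per sample, and a gene was read as CPM, its counts per 1000000 counts of the library, after TMM scaling in edgeR across all 8 libraries. The floor of 3 counts corresponded to between 0.0921 and 0.146 CPM, and it covers counting error only. All 5 gonadotrope markers (*Lhb*, *Fshb*, *Cga*, *Gnrhr*, *Nr5a1*) had counts in every sample, with a summed level of 21488 to 34863 CPM in females, 67930 to 75717 CPM in the 3 males compared and 28423 CPM in male replicate 1. Of these, *Fshb* was called higher in males, with a log2 fold change of 3.13 (edgeR adjusted p = 0.0449), and leaving out single samples gave adjusted p of 0.0325 to 0.135. *Nr5a1*, whose regulatory region drives the sorted EGFP, was at 862 to 1266 CPM in females, 584 to 801 CPM in the 3 males compared and 16.3 CPM in male replicate 1. Every marker of other cell types that was examined also had counts in every sample. The somatotrope hormone gene *Gh* ranged from 12394 to 142244 CPM over the 8 samples.

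Promoter letters, which the choice of the genes did not use, were counted by role. RefSeq promoters of GRCm38.p6, each running from 250 bases before to 50 bases after a gene start, were at hand for 34 of the 43 members, in 39 windows. They were searched on both strands for TTTGAA, the core of the cell cycle genes homology region (CHR) that MuvB binds, for CCAAT, the NF-Y element, and for the E2F letters TTTGGCGC, TTTGCCGC, TTTCGCGC and TTTCCCGC. TTTGAA was present in 10 of 15 mitotic windows (66.7%), in 1 of 10 replication windows (10%) and in none of the 14 windows of the other 3 roles, against 17.9% of all 32851 promoters. CCAAT was present in 13 of 15 mitotic windows (86.7%), in 9 of 10 replication windows (90%), in 3 of 7 inhibitor windows (42.9%), in 1 of 3 windows of entry into S phase and in 1 of 4 windows of G1 cyclins and kinases, against 37.4% of all promoters. The E2F letters were present in 4 of 10 replication windows (40%), in 1 of 3 windows of entry into S phase (33.3%), in 1 of 7 inhibitor windows (14.3%), in 1 of 15 mitotic windows (6.67%) and in none of the 4 windows of G1 cyclins and kinases, against 2.26% of all promoters. TTTGAA and CCAAT stood together in 10 of 15 mitotic windows and in 6.95% of all promoters. These are matches of letters, and binding was not measured.

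The 250 bases before the RefSeq start of 3 mitotic genes, 1 replication gene and 1 G1 kinase gene are given because they show where these letters lie. Gene coordinates given further on come from GENCODE, and the starts can differ. The end of the *Cdk1* sequence, with its last CHR match, lies inside the GENCODE gene, and the *Mcm6* sequence ends short of the GENCODE start. Capitals mark the CHR core, the CCAAT element and the E2F letters on either strand, and 2 of the 3 E2F matches of *Mcm6* overlap each other.
Cdk1 (chr10:69352913-69353162, minus strand): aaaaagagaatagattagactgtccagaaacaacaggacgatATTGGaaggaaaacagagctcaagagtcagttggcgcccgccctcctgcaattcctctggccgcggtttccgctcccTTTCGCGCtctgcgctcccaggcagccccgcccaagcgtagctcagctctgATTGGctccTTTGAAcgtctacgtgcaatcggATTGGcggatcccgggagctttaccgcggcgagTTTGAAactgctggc
Mki67 (chr7:135716380-135716629, minus strand): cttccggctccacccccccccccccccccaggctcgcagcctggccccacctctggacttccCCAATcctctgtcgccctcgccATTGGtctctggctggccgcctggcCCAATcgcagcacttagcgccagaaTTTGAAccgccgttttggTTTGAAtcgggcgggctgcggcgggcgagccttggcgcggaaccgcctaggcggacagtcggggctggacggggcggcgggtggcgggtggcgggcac
Top2a (chr11:99024190-99024439, minus strand): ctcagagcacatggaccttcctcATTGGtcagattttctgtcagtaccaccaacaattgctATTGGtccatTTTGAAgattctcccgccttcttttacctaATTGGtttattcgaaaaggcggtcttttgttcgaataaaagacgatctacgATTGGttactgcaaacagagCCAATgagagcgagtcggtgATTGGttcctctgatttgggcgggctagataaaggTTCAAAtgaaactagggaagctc
Mcm6 (chr1:128359706-128359955, minus strand): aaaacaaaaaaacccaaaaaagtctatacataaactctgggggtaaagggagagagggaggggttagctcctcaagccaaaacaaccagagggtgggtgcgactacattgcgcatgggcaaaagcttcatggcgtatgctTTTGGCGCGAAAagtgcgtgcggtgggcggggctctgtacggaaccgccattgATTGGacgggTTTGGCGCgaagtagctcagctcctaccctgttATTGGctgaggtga
Cdk4 (chr10:127063285-127063534, plus strand): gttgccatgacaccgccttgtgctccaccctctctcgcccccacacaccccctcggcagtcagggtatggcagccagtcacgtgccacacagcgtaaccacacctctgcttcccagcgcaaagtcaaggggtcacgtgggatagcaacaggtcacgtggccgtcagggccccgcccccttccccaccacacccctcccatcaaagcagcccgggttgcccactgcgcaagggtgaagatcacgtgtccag
The *Cdk1*, *Mki67* and *Top2a* sequences each hold 2 matches of the CHR core and between 3 and 6 matches of CCAAT. *Cdk1* also holds 1 E2F match, and it is the mitotic window counted above with these letters. The *Mcm6* sequence holds 3 E2F matches, 2 CCAAT matches and no CHR core. The *Cdk4* sequence holds none of the letters searched.

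The level of these genes in the sorted samples was graded by role, high for the G1 cyclins and low for nearly all mitotic genes. These samples also held transcripts of markers of other cell types, whose part in the levels was not tested. Levels were set against each other as mean CPM per kilobase of exon over female replicates 1 to 4 and male replicates 2 to 4, ranked among the 17138 coding genes with a count. The median percentile was 91.0 for the G1 cyclins and kinases, 55.8 for the inhibitors, 43.1 for DNA replication, 30.8 for entry into S phase and 16.2 for the mitotic genes. Over all members the median percentile was 32.0. Of the 43 members, 8 stood at the 75th percentile or above, and they were *Ccnd2*, *Ccnd1*, *Cdkn1b*, *Cdk4*, *Pcna*, *Pttg1*, *Ccnd3* and *Cdkn1a*. This rank pools the sexes, and *Cdkn1a* stood at the 59.8th percentile by its female mean and at the 88.9th by its male mean, while the other 7 were at the 75th percentile or above in each sex. Another 18 stood under the 25th percentile, of which 15 were mitotic. At least 1 CPM was reached in all 7 of these samples by 22 members, and by 12068 of the 17138 coding genes (70.4%). Of the 22 members, 5 were G1 cyclins and kinases, 9 were replication genes and 3 were mitotic genes.

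**Figure D1:**
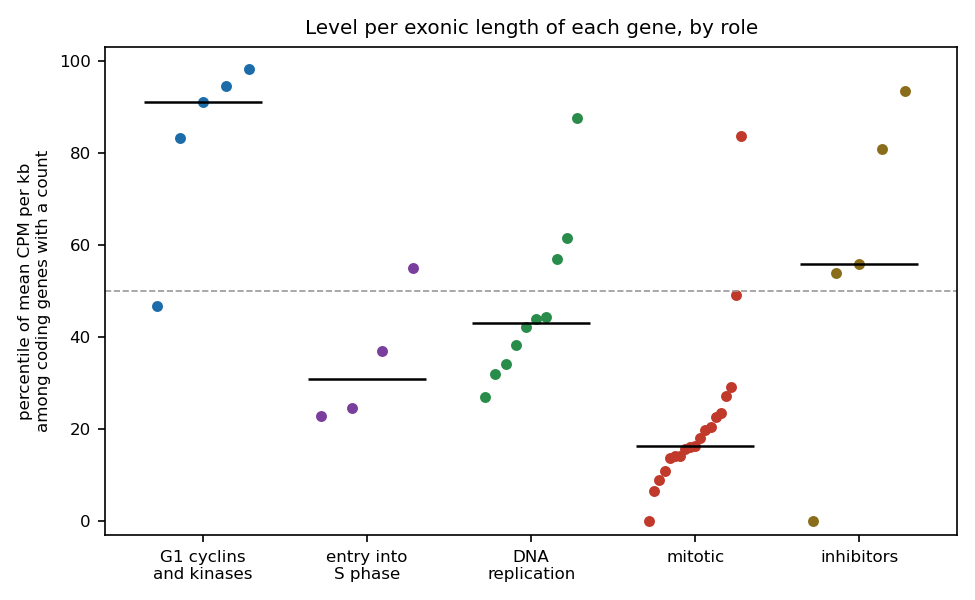
Percentile of each gene's mean CPM per kilobase of exon (vertical axis) among 17138 coding genes with a count, by role (horizontal axis). Points are genes, bars are the medians of a role (91.0 for G1 cyclins and kinases, 16.2 for mitotic genes), and the dashed line is the 50th percentile.

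*Ccnd2* (chr6:127125162-127152193, minus strand), which encodes cyclin D2, had the highest level of all members per length, at 116 CPM per kilobase and the 98.1th percentile. It was at 865, 1099, 1083 and 992 CPM in females, at 1169, 1182 and 1282 CPM in the 3 males compared, and at 1160 CPM in male replicate 1. Each male sample was above each female sample. Males over females, the log2 fold change was 0.23 ± 0.13 (SE, edgeR adjusted p = 0.385), so the difference did not pass the test, and with library size alone it was 0.019. *Ccnd1* (chr7:144929931-144939925, minus strand), for cyclin D1, was at 210, 162, 196 and 230 CPM in females, 225, 177 and 199 CPM in the 3 males compared and 185 CPM in male replicate 1. The sexes overlapped throughout, and its log2 fold change was -0.03 ± 0.16 (SE). *Ccnd3*, for cyclin D3, was at 109, 115, 115 and 101 CPM in females, 112, 143 and 168 CPM in the 3 males compared and 102 CPM in male replicate 1. Per length, *Ccnd2* made up 61.7 to 71.0% of the summed level of the 3 D cyclin genes in the 8 samples, *Ccnd1* 20.94 to 29.98% and *Ccnd3* 6.65 to 9.68%. The order of the 3 genes was thus the same in every sample.

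The kinase partners of the D cyclins differed in level and in how they varied. *Cdk4* (chr10:127063534-127067920, plus strand) was at 132, 122, 44.1 and 129 CPM in females, at 10.1, 42.1 and 125 CPM in the 3 males compared, and at 131 CPM in male replicate 1. Female replicate 3 and male replicates 2 and 3 were low, and the other 5 samples lay within 122 to 132 CPM. *Cdk4* shares 641 exonic bases with *Tspan31*, a tetraspanin gene on the opposite strand, which was at 330, 46.9 and 311 CPM in those 3 samples and between 81.9 and 261 CPM in the other 5. Reads of the shared bases cannot be told apart here. The log2 fold change of *Cdk4* was -0.88 ± 0.79 (SE), and leaving out single samples gave -2.08 (without male replicate 4) to -0.38 (without male replicate 2).

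*Cdk6* (chr5:3341485-3531008, plus strand), the other D cyclin kinase, was at 44.9, 34.4, 46.1 and 42.5 CPM in females and at 25.3, 26.5 and 30.3 CPM in male replicates 2 to 4. Each female sample was above each of these males, but male replicate 1, at 47.5 CPM, was above every female. Its log2 fold change was -0.65 ± 0.16 (SE), and the edgeR adjusted p of 0.0861 was the lowest of all members without passing the threshold of 0.05. DESeq2 called *Cdk6* lower in males, with an adjusted p of 0.00595, and edgeR with library size alone called it with an adjusted p of 0.0395. With all 8 samples, and under the other alternatives run, it was not called, and leaving out single samples gave edgeR adjusted p of 0.110 to 0.259. Per length, the mean of *Cdk4* was 10.4-fold above that of *Cdk6*, which stood at the 46.7th percentile. Sample by sample, the ratio ran from 1.73 in male replicate 2 and 4.11 in female replicate 3 to 17.8 in male replicate 4.

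**Figure D2:**
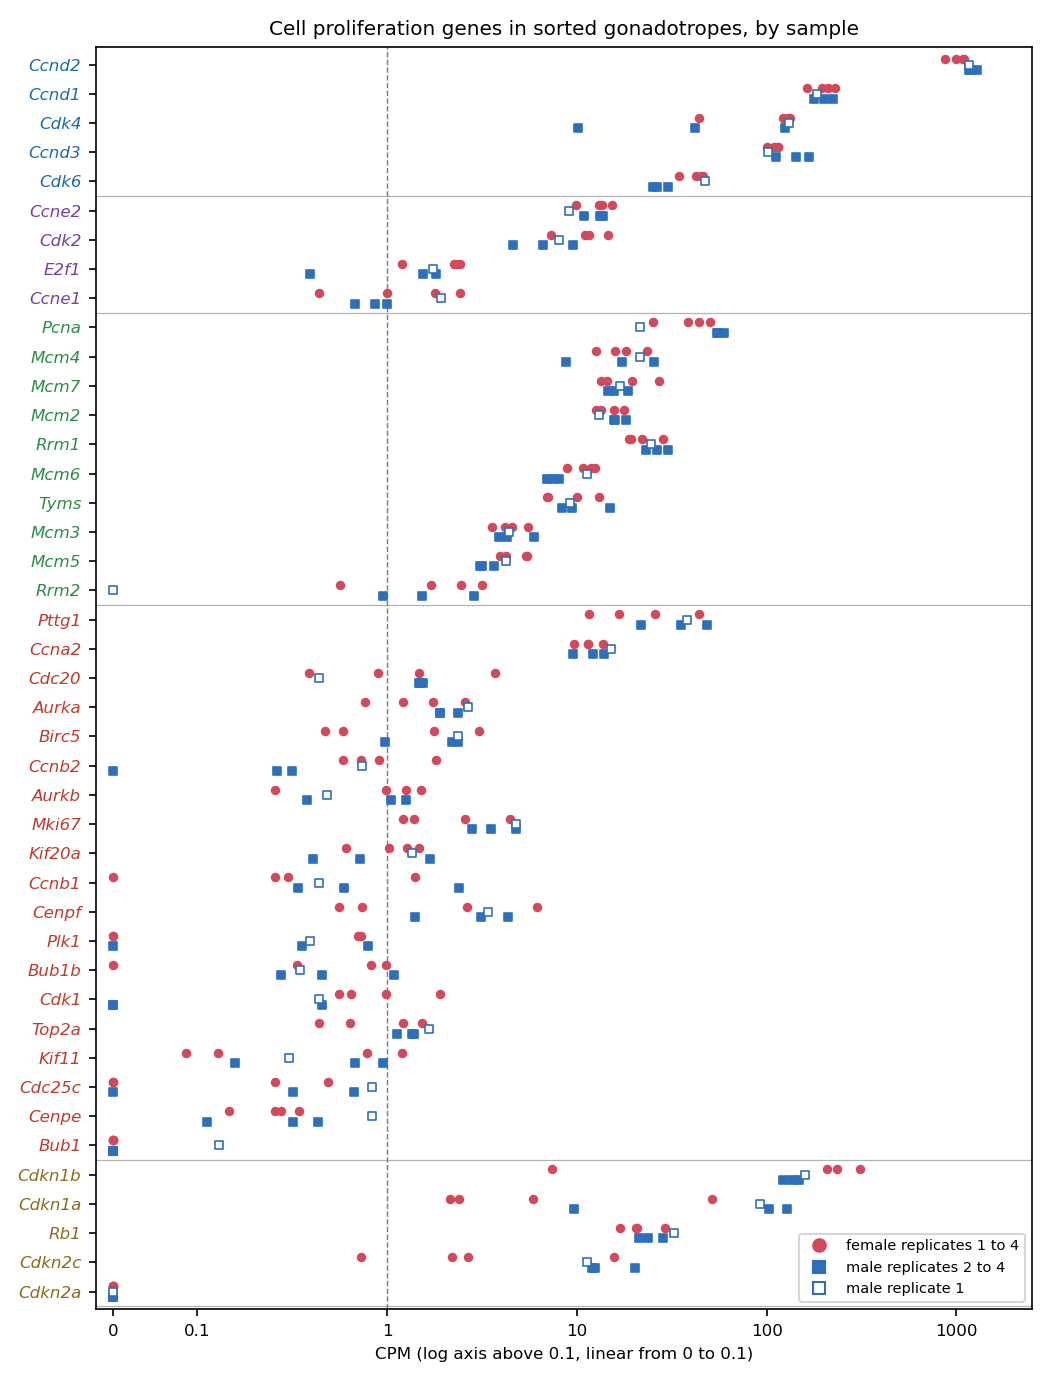
CPM of each of the 43 genes (horizontal axis, logarithmic above 0.1 CPM and linear from 0 to 0.1 CPM), with genes grouped by role and ordered within a role by level. Circles are the 4 female samples, filled squares male replicates 2 to 4 and open squares male replicate 1. The dashed line is 1 CPM, and most mitotic genes lie about it or to its left.

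Among the genes of entry into S phase, *Ccne2*, for cyclin E2, was at 13.6, 13.0, 15.4 and 9.86 CPM in females, 11.0, 13.8 and 13.3 CPM in the 3 males compared and 9.12 CPM in male replicate 1. *Ccne1*, for cyclin E1, was at 1.80, 0.439, 2.42 and 0.994 CPM in females, 0.867, 0.680 and 0.999 CPM in the 3 males compared and 1.92 CPM in male replicate 1. Both genes overlapped between the sexes. *Cdk2*, for the kinase that cyclin E activates, ranged from 4.63 to 14.5 CPM over the 8 samples. *E2f1*, for the transcription factor, ranged from 0.394 to 2.44 CPM. All 4 genes had a negative log2 fold change, from -0.76 ± 0.61 (SE) for *Ccne1* to -0.06 ± 0.20 (SE) for *Ccne2*, and none passed the test. That of *Ccne1* was -0.35 without female replicate 3, and *Ccne2* turned positive without female replicate 3 (0.045) and without male replicate 2. Their levels summed to 27.5 ± 5.46 CPM in females (SD, n = 4), to 21.7 ± 1.24 CPM in males (SD, n = 3) and to 20.9 CPM in male replicate 1.

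Replication genes were present at intermediate levels, led by *Pcna* (chr2:132249162-132253314, minus strand), which encodes the sliding clamp of DNA polymerase and also serves in DNA repair. *Pcna* was at 38.5, 25.1, 50.5 and 44.0 CPM in females, at 59.6, 54.6 and 55.5 CPM in the 3 males compared and at 21.4 CPM in male replicate 1. The 3 males compared were above all females, and male replicate 1 was below all females. For *Pcna* the log2 fold change was 0.49 ± 0.23 (SE, edgeR adjusted p = 0.302), against 0.28 with library size alone and 0.27 with all 8 samples. The 6 subunits of the MCM helicase ranged from 1.04 CPM per kilobase for *Mcm5* to 4.84 CPM per kilobase for *Mcm4*, a ratio of 4.67.

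*Mcm6* (chr1:128331590-128359664, minus strand) was at 12.5, 10.8, 8.84 and 11.8 CPM in females, 8.08, 7.36 and 6.99 CPM in the 3 males compared and 11.4 CPM in male replicate 1. *Mcm5* (chr8:75109569-75128439, plus strand) was at 5.43, 5.41, 3.96 and 4.24 CPM in females, 3.66, 3.17 and 3.09 CPM in the 3 males compared and 4.23 CPM in male replicate 1. In both genes each female was above each of the 3 males compared, while male replicate 1 lay inside the female range. Their log2 fold changes were -0.59 ± 0.18 (SE, edgeR adjusted p = 0.143) and -0.56 ± 0.22 (SE, edgeR adjusted p = 0.228). The other 4 subunit genes overlapped between the sexes, with log2 fold changes from -0.21 for *Mcm7* through -0.06 for *Mcm4* and 0.04 for *Mcm3* to 0.12 for *Mcm2*, and edgeR called none of the 4. Each of these 4 changes turned direction under 1 or more of the alternatives run, *Mcm2* and *Mcm3* among them with library size alone. *Rrm1*, for the large subunit of ribonucleotide reductase, ranged from 18.9 to 30.3 CPM over the 8 samples. *Rrm2*, for its small subunit, which is made in S phase, was at 3.16, 1.71, 2.46 and 0.562 CPM in females, 1.54, 2.87 and 0.954 CPM in the 3 males compared and 0 in male replicate 1. *Tyms*, for thymidylate synthase, ranged from 6.93 to 14.9 CPM. The summed level of the 10 replication genes averaged 144 ± 18.1 CPM over females (SD, n = 4) and 161 ± 10.1 CPM over males (SD, n = 3), and male replicate 1, at 127 CPM, was below the other males. With library size alone the order of the means turned, to 155 CPM over females and 146 CPM over males.

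Of the 19 mitotic genes, only *Pttg1*, *Ccna2* and *Mki67* reached 1 CPM in all 7 samples compared. *Pttg1* (chr11:43420250-43426251, minus strand), for securin, which was first described as a pituitary tumour transforming gene, was at 25.8, 11.6, 44.1 and 16.7 CPM in females, 35.5, 21.7 and 48.4 CPM in the 3 males compared and 38.1 CPM in male replicate 1. Its log2 fold change was 0.50 ± 0.48 (SE), and 0.19 to 0.96 when single samples were left out. *Ccna2*, for cyclin A2 of S phase and G2, was at 9.71, 11.4, 13.8 and 11.5 CPM in females, 12.1, 13.9 and 9.58 CPM in the 3 males compared and 15.1 CPM in male replicate 1. *Ccna2* shares 510 exonic bases with *Exosc9*, an exosome gene on the opposite strand, which was at 1.64 to 6.29 CPM. In all, 16 of the 43 members share exonic bases with another annotated gene, among them *Kif20a* (1271 bases with *Cdc23*, which was at 6.72 to 73.1 CPM) and *Ccnd1* (1100 bases with *LTO1*, which was at 3.72 to 70.9 CPM). The sexes overlapped for *Ccna2*, with a log2 fold change of -0.0014 ± 0.19 (SE) that turned direction under 9 of the 15 alternatives.

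*Mki67* and *Top2a*, which mark dividing cells, were at low levels. *Mki67* (chr7:135689784-135716361, minus strand), for the Ki-67 protein of dividing cells, was at 2.57, 1.22, 4.45 and 1.38 CPM in females, 2.80, 4.79 and 3.54 CPM in the 3 males compared and 4.80 CPM in male replicate 1. *Top2a* (chr11:98992943-99024189, minus strand), for topoisomerase II alpha, was at 0.642, 0.439, 1.53 and 1.21 CPM in females, 1.38, 1.13 and 1.36 CPM in the 3 males compared and 1.66 CPM in male replicate 1. The sexes overlapped in both genes. Their log2 fold changes were 0.59 ± 0.49 (SE) and 0.40 ± 0.51 (SE), with 0.38 to 1.09 and 0.19 to 0.74 when single samples were left out, and neither passed the test. Per length, *Mki67* stood at the 19.7th percentile and *Top2a* at the 13.7th.

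*Cdk1* (chr10:69335146-69352938, minus strand), the kinase that starts mitosis, was at 0.556, 1.90, 0.982 and 0.648 CPM in females, 0, 0.453 and 0 in the 3 males compared and 0.437 CPM in male replicate 1. *Ccnb2* (chr9:70407692-70421547, minus strand), for cyclin B2, was at 0.727, 0.585, 1.81 and 0.908 CPM in females, 0.315, 0.264 and 0 in the 3 males compared and 0.742 CPM in male replicate 1. *Ccnb1*, for the other B cyclin, was at 0.257, 0, 1.41 and 0.303 CPM in females, 2.40, 0.340 and 0.590 CPM in the 3 males compared and 0.437 CPM in male replicate 1. The females were above the 3 males compared for *Cdk1* and *Ccnb2*, and the sexes overlapped for *Ccnb1*. The log2 fold changes of *Cdk1* and *Ccnb2* were -2.73 ± 1.38 (SE, edgeR adjusted p = 0.332) and -2.37 ± 1.01 (SE, edgeR adjusted p = 0.252), and, since 1 or more males were at 0, these sizes depend on the prior count. Leaving out single samples gave -7.67 (without male replicate 3) to -2.16 (without male replicate 2) for *Cdk1*, and -2.88 to -1.82 for *Ccnb2*. The two-sided exact permutation test of mean log2(CPM + 1) gave p = 0.0286 for *Cdk1* and for *Ccnb2*, the smallest value that 3 against 4 samples allow, among the 43 members for which it was computed, without adjustment. It reached that value in 2 of the 39 members in the edgeR fit (5.13%) and in 13.4% of all genes in that fit, so the members' share is below the background. *Ccnd2*, *Cdk6*, *Mcm5*, *Mcm6* and *Pcna* were at 0.0571 by the same exact permutation test, and 17.9% of the 39 members were at or below that value, against 21.6% of all genes in the fit. Male *Ccnb1* rested on replicate 2, and its log2 fold change went from 1.12 ± 1.24 (SE) to -0.11 without that sample.

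The other 12 mitotic members stayed at or below 6.17 CPM in every sample. *Bub1*, a spindle checkpoint kinase gene, was at 0 in the 7 samples compared and had 3 counts in male replicate 1. *Cdc25c*, for the phosphatase that activates CDK1, *Cenpe*, for a kinetochore motor, and *Plk1*, for Polo-like kinase, stayed below 1 CPM in all 8 samples. *Cenpf*, for a kinetochore protein, ranged from 0.556 to 6.17 CPM and *Cdc20*, for an activator of the anaphase-promoting complex, from 0.390 to 3.71 CPM. *Birc5*, for survivin, ranged from 0.470 to 3.07 CPM, *Aurka*, for Aurora A kinase, from 0.767 to 2.66 CPM and *Aurkb*, for Aurora B kinase, from 0.257 to 1.51 CPM. The spindle motor genes *Kif11* and *Kif20a* ranged from 0.0865 to 1.197 CPM and from 0.409 to 1.69 CPM, and the checkpoint gene *Bub1b* from 0 to 1.09 CPM.

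Female replicate 3, the deepest library, had the highest level among females for 12 of the 18 mitotic genes with a count in females, and for 23 of 41 members over all roles. The summed level of the 17 mitotic genes other than *Pttg1* and *Ccna2* was 11.3, 14.8, 29.4 and 12.8 CPM in females, 21.7, 18.1 and 16.8 CPM in the 3 males compared and 21.6 CPM in male replicate 1. Female replicate 3 was thus above every male, and the other 3 females were below every male. For all 19 mitotic genes the sum averaged 53.2 ± 23.0 CPM over females (SD, n = 4) and 65.9 ± 10.9 CPM over males (SD, n = 3), with 74.8 CPM in male replicate 1. The difference of the means was smaller than the SD among females, which rests on female replicate 3 at 87.2 CPM. The other 3 females, at 37.8 to 46.8 CPM with a mean of 41.9 CPM, were below every male (53.7 to 74.8 CPM). In bulk samples, fewer dividing cells and less RNA per cell cannot be told apart.

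**Figure D3:**
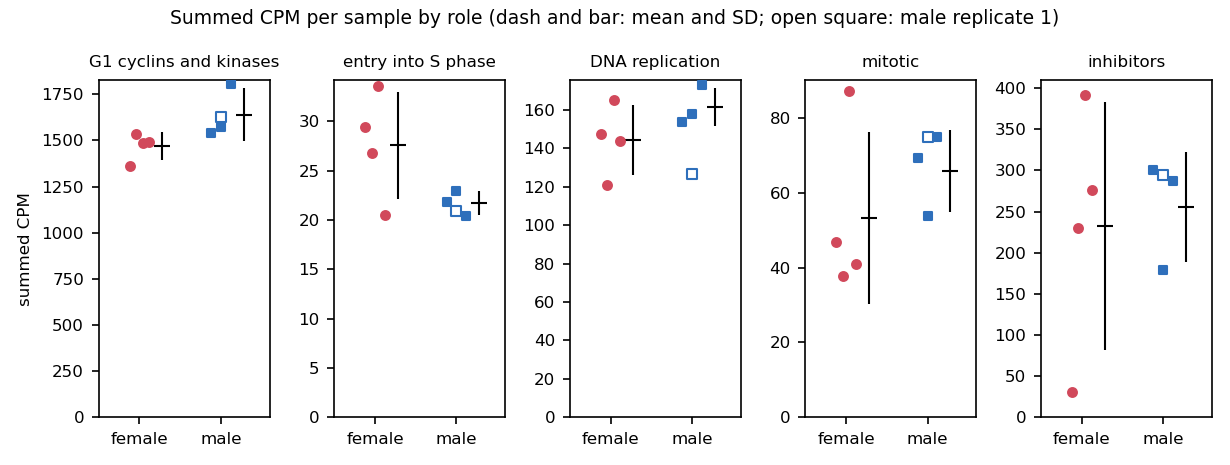
Summed CPM of the genes of each role (vertical axes, all from 0) in each sample of each sex. Circles are females, filled squares male replicates 2 to 4, open squares male replicate 1, and the dash and bar are the mean and SD of 4 females or of male replicates 2 to 4. For mitotic genes 1 female sample, replicate 3, lies at 87.2 CPM, above the rest.

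The counts of several inhibitor genes varied widely between samples. How the deposited table assigned reads to loci is not known here, and its part in this variation, and in that of *Cdk4*, was not tested. Over the 7 samples of both sexes, and among the 22 members with at least 1 CPM in each, only *Cdkn1a*, *Cdkn1b* and *Cdk4* had a range of 10-fold or more, and the range of the others was at most 4.17-fold. *Cdkn1a* (chr17:29090976-29100727, plus strand), for the CIP/KIP inhibitor p21, a target of p53, was at 2.39, 2.15, 51.8 and 5.88 CPM in females, 103.4, 9.70 and 128 CPM in the 3 males compared and 92.2 CPM in male replicate 1. Female replicate 3 and male replicates 1, 2 and 4 were high, and the sexes overlapped. The log2 fold change was 2.36 ± 1.31 (SE, edgeR adjusted p = 0.384), and leaving out single samples gave 1.84 (adjusted p = 0.587, without male replicate 4) to 4.52 (adjusted p = 0.0928, without female replicate 3).

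*Cdkn1b* (chr6:134920401-134925513, plus strand), for the inhibitor p27, was at 7.36, 208, 309 and 234 CPM in females, 149, 136 and 123 CPM in the 3 males compared and 159 CPM in male replicate 1. Female replicate 1 was low, with 172 counts against 4273 or more in the other females, and the other 3 females were above all males. The fitted log2 difference was -0.51 ± 0.93 (SE, edgeR adjusted p = 0.825), and leaving out single samples gave -0.89 (adjusted p = 0.0815, without female replicate 1) to -0.16 (adjusted p = 0.951, without female replicate 3). Per length, *Cdkn1b* stood at the 93.4th percentile and *Cdkn1a* at the 80.8th.

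*Cdkn2c* (chr4:109660876-109667189, minus strand), for the INK4 inhibitor p18, was at 0.727, 2.68, 2.21 and 15.6 CPM in females, 20.3, 11.97 and 12.4 CPM in the 3 males compared and 11.3 CPM in male replicate 1. Female replicate 4 lay inside the male range and the other 3 females below it. The fitted log2 difference was 1.45 ± 0.92 (SE, edgeR adjusted p = 0.452), and leaving out single samples gave 1.10 (adjusted p = 0.544, without female replicate 1) to 2.97 (adjusted p = 0.0723, without female replicate 4). *Cdkn2a*, for the INK4 inhibitor p16 and for p19ARF, had 0 counts in all 8 samples, which allows up to 0.0921 to 0.146 CPM. *Rb1*, for the retinoblastoma protein, was at 20.5, 16.9, 29.2 and 20.7 CPM in females, 28.4, 21.3 and 23.8 CPM in the 3 males compared and 32.6 CPM in male replicate 1. Its log2 fold change was 0.14 ± 0.22 (SE) and turned to -0.073 with library size alone.

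**Figure D4:**
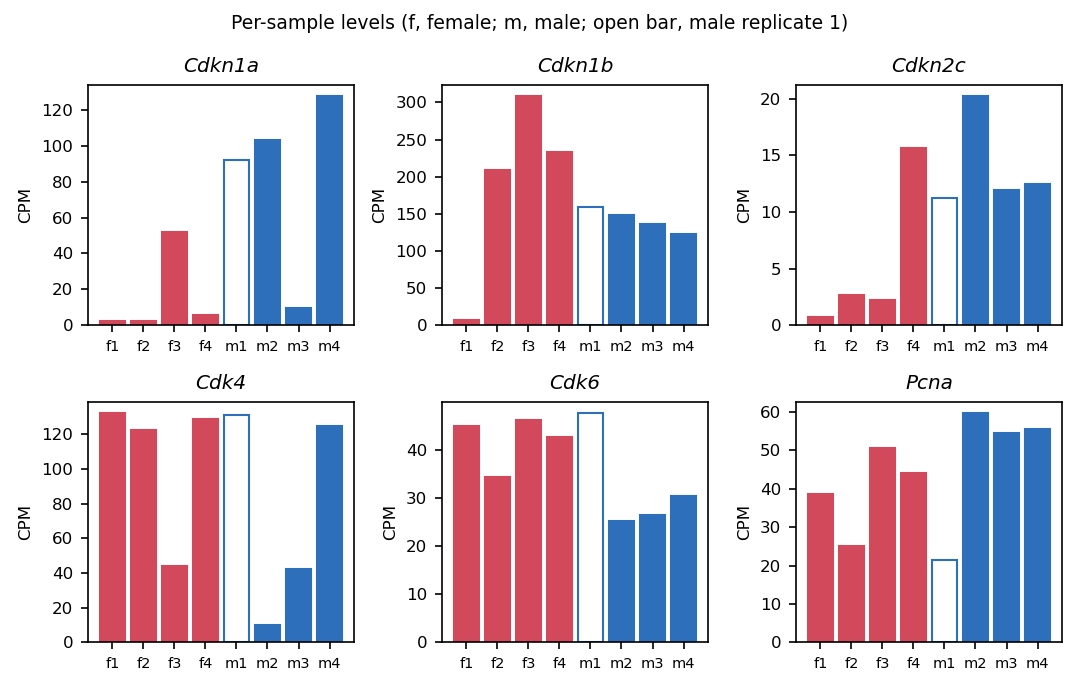
CPM (vertical axes, from 0) of *Cdkn1a*, *Cdkn1b*, *Cdkn2c*, *Cdk4*, *Cdk6* and *Pcna* in each of the 8 samples (horizontal axis; f, female; m, male; open bar, male replicate 1). For *Cdkn1a*, *Cdkn1b*, *Cdkn2c* and *Cdk4*, 1 or more samples stand far from the rest of their sex, while for *Cdk6* and *Pcna* the sexes separate once male replicate 1 is set apart.

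Between the sexes, no cell proliferation gene was called by edgeR's quasi-likelihood test at an adjusted p under 0.05. The test covered 39 of the 43 members, since *Cdc25c*, *Bub1*, *Cenpe* and *Cdkn2a* did not pass the filter on low counts. Over all 20152 genes tested, 471 were called (2.34%), of which 198 were higher in males (0.983% of the genes tested), and with library size alone 133 of 808 were. At an unadjusted p under 0.05 there were 3 members, *Cdk6*, *Mcm5* and *Mcm6*, all higher in females, which is 7.69% of the 39 against 19.9% of all genes tested. DESeq2 called 1 member, *Cdk6*, and 11.6% of all genes tested, and edgeR with library size alone called *Cdk6* and 4.01% of all genes tested. The median log2 fold change was 0.04 over the 39 members and -0.03 over all genes tested, with 20 members higher and 19 lower in males. With library size alone these medians were -0.17 and -0.24, and 13 members were higher and 26 lower in males. Over all the alternatives run, 18 of the 39 members had another direction in at least 1 of them.

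The samples of the sexes did not overlap in 7 of the 39 members (17.9%), against 22.3% of all genes tested. *Ccnd2* and *Pcna*, 2 of the 39, were higher in each male, as were 11.5% of all genes tested. *Cdk6*, *Mcm5*, *Mcm6*, *Cdk1* and *Ccnb2*, 5 of the 39, were higher in each female, as were 10.8% of all genes tested. These shares are near or below the background, and nothing particular to these genes is read from them.

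**Figure D5:**
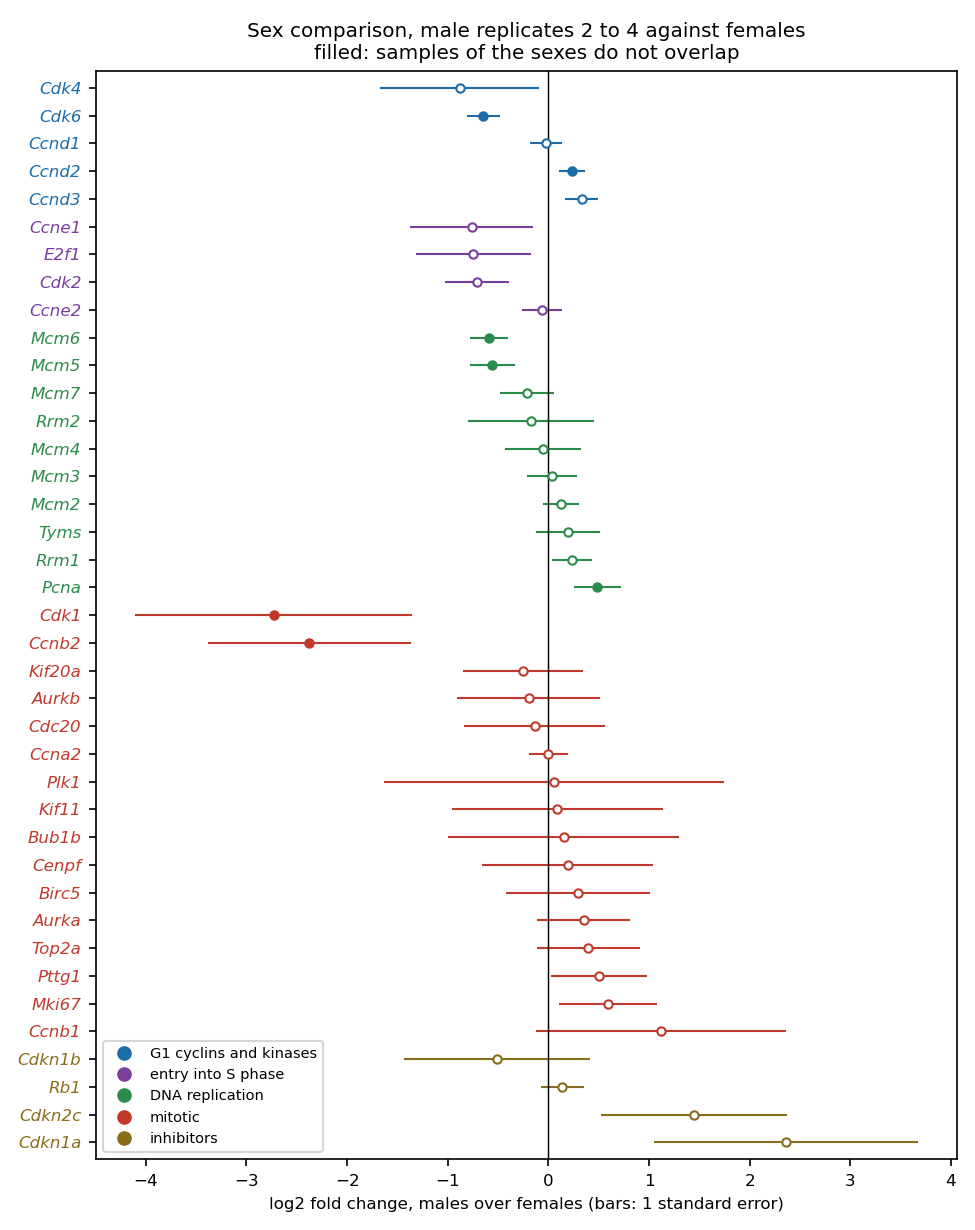
log2 fold change of males over females with its standard error (horizontal axis) for the 39 genes tested, grouped and coloured by role. Filled points are the 7 genes whose samples do not overlap between the sexes, and no gene passed the edgeR threshold.

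Among 67 other genes of the same pathways, 61 were tested and 2 were called, both higher in males, which is 3.28% of the 61 against 2.34% of all genes tested. DESeq2 also called 2 of them, against 11.6% of all genes tested. Of 24 other mitotic genes (such as *Tpx2*, *Ube2c* and *Foxm1*), 21 were tested and none was called. Of 25 other replication genes (such as *Gins2*, *Cdc6* and *Slbp*), 24 were tested and none was called. Of 18 other G1 regulators, 16 were tested, and the 2 called were *Cdkn2b* and *Mdm2*. *Cdkn2b*, for the INK4 inhibitor p15, was at 6.33, 9.71, 6.23 and 7.09 CPM in females, 19.5, 28.1 and 23.1 CPM in the 3 males compared and 6.37 CPM in male replicate 1. Its log2 fold change was 1.65 ± 0.23 (SE, edgeR adjusted p = 0.0280). *Mdm2*, for the ubiquitin ligase that restrains p53, was at 49.95, 49.999, 53.8 and 50.5 CPM in females, 84.3, 87.4 and 79.6 CPM in the 3 males compared and 43.7 CPM in male replicate 1. Its log2 fold change was 0.68 ± 0.12 (SE, edgeR adjusted p = 0.0403). For both genes male replicate 1 lay with the females, and neither was called with all 8 samples, where the adjusted p was 0.275 for *Cdkn2b* and 0.488 for *Mdm2*. Leaving out single samples gave adjusted p of 0.0335 to 0.0925 for *Cdkn2b*, which passed only without female replicate 2, and of 0.0643 to 0.143 for *Mdm2*. *Mdm2* was also not called with library size alone (edgeR adjusted p = 0.0791) or with no filter beyond 1 count (edgeR adjusted p = 0.0755). With a replicate block, edgeR called neither *Cdkn2b* (adjusted p = 0.243) nor *Mdm2* (adjusted p = 0.253). DESeq2 called both, with adjusted p of 8.6e-08 for *Cdkn2b* and 2.5e-11 for *Mdm2*.

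Markers of other cell types were compared between the sexes too. The 4 pituitary stem cell markers (*Sox2*, *Sox9*, *Aldh1a2*, *Cdh26*) had a summed level of 346 to 576 CPM in females, 224 to 285 CPM in the 3 males compared and 405 CPM in male replicate 1. Of these, 2 were called lower in males, *Sox9* with a log2 fold change of -1.02 ± 0.18 (SE, edgeR adjusted p = 0.0417) and *Cdh26* with -1.62 ± 0.30 (SE, edgeR adjusted p = 0.0470). Leaving out single samples gave edgeR adjusted p of 0.0580 to 0.135 for *Sox9*, and of 0.0446 to 0.156 for *Cdh26*, which passed only without male replicate 2. With all 8 samples neither was called (edgeR adjusted p = 0.438 and 0.0898), nor with no filter beyond 1 count (0.0665 and 0.0739). DESeq2 called both, and *Sox2* as well (adjusted p = 0.00457). *Cdk6*, *Mcm5*, *Mcm6* and *Ccnb2* had the same order as the summed stem cell markers, with male replicate 1 in or above the female range. *Cdk1* was also higher in each female than in the 3 males compared, but male replicate 1 was below every female. Each female was above each of these males in 10.8% of all genes tested. The 5 endothelial markers summed to 406 to 528 CPM in females, 408 to 557 CPM in the 3 males compared and 689 CPM in male replicate 1, and neither edgeR nor DESeq2 called any. The 5 stromal markers summed to 100.1 to 138 CPM in females and 85.4 to 101 CPM in males, and the 5 immune markers to 27.8 to 64.8 CPM in females and 48.1 to 64.3 CPM in males, with male replicate 1 at 99.3 and 36.8 CPM, and edgeR called none. DESeq2 called 2 of the stromal markers lower in males, *Col3a1* (adjusted p = 0.00116) and *Col1a1* (adjusted p = 0.0135), and no immune marker. The 5 erythroid markers summed to 184 to 580 CPM in females, with the highest value in female replicate 3, to 81.2 to 222 CPM in males and to 49.9 CPM in male replicate 1. Of these, edgeR called none and DESeq2 called *Hbb-bs* lower in males (adjusted p = 0.0352). The 2 somatotrope markers summed to 12397 to 57867 CPM in females, 65338 to 142304 CPM in the 3 males compared and 30152 CPM in male replicate 1, so that the sexes did not overlap, and neither was called by edgeR or DESeq2. The thyrotrope hormone gene *Tshb* was at 20.9 to 83.5 CPM in females, 235 to 339 CPM in the 3 males compared and 82.7 CPM in male replicate 1, with a log2 fold change of 2.35 ± 0.46 (SE, edgeR adjusted p = 0.0525), and DESeq2 called it higher in males (adjusted p = 9.3e-05). No lactotrope, corticotrope or melanotrope marker was called by edgeR or DESeq2. The part of these cells in the levels of the proliferation genes was not tested.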

How the data were processed

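RNA was prepared from EGFP-positive sorted cells and made into libraries with a kit for low input, and paired-end reads were trimmed with cutadapt, mapped to mm10 with STAR and counted with featureCounts, per the study's methods and the submitters' processing notes. The values the authors deposited are raw counts of reads per gene in each of the 8 samples. The annotation is not given in the sources used here. Of the entries, 28933 carry names of the MSTRG form, which StringTie gives and which the methods do not mention, and so do 34 of the 43 members. How such loci split the reads of a gene, and whether strand was used, is not known here, so reads of overlapping genes cannot be told apart.

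CPM used TMM factors over the 8 samples. The comparison of male replicates 2 to 4 with all 4 females was fitted in edgeR (version 4.0.16, R 4.3.3) by the quasi-likelihood test, with TMM over these 7 samples, filterByExpr, Benjamini-Hochberg adjustment over all 20152 genes tested and a threshold of 0.05. The standard error is the absolute log2 fold change over the square root of F. For single genes, a two-sided exact permutation test of mean log2(CPM + 1), a pseudocount of 1, used all 35 splits. Alternatives were DESeq2 (version 1.42.0), other scalings and filters, all 8 samples, a replicate block, robust dispersion and leaving out each sample. The test was also run on simulated counts in which 200 genes differed by 3 log2 units in either direction, and its outcome is not used here. Other steps used Python 3.11.15 with pandas 2.3.3. Lengths and coordinates are exon unions of GENCODE genes on mm10, and promoters are from RefSeq.

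The genes named are all 43 members, those of the other pathway lists that passed the threshold, and marker genes. The members and lists were chosen with earlier results of these data known.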

Additional observations from a re-analysis of the deposited data

Results flagged for a closer look

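The 43 genes and the sums over roles, in the 4 females and in all 4 males, made 93 groups of 4 samples. Male replicate 1 was included. In 12 of them, 1 sample had a gap to the nearest other above Dixon's 95% critical share of the group's range. Chance gives 4.65 for independent groups of normal values, which low counts and sums of the same genes are not. The 12 are thus not read as an excess over chance. Among females, replicate 3 stood apart for *Cdk4*, at 44.1 CPM against 122 to 132 CPM, for *E2f1*, at 1.197 CPM against 2.24 to 2.44 CPM, and for *Cdkn1a*, at 51.8 CPM against 2.15 to 5.88 CPM. Female replicate 4 stood apart for *Cdkn2c*, at 15.6 CPM against 0.727 to 2.68 CPM. Among males, replicate 1 stood apart for *Pcna*, at 21.4 CPM against 54.6 to 59.6 CPM, for *Cdc20*, at 0.437 CPM against 1.47 to 1.54 CPM, and for *Bub1*, at 0.131 CPM (3 counts) against 0. Any count of *Bub1* would have been flagged, since the other males were at 0, and 3 counts are at the floor. Male replicate 2 stood apart for *Tyms*, at 14.9 CPM against 8.38 to 9.40 CPM, for *Ccnb1*, at 2.40 CPM against 0.340 to 0.590 CPM, and for *Cdkn2c*, at 20.3 CPM against 11.3 to 12.4 CPM. Male replicate 3 stood apart for *Birc5*, at 0.982 CPM against 2.21 to 2.36 CPM, and for the summed level of the 5 inhibitors, at 179 CPM against 287 to 301 CPM.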

How the results depend on the processing

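Over all genes, 471 were called, against 2329 with DESeq2, 808 with library size alone, 177 with no filter beyond 1 count, 67 with all 8 samples and 88 to 171 when single samples were left out. With library size alone the log2 fold changes had a median of -0.24 over all genes, against -0.03, and the calls split into 133 up and 675 down in males, against 198 and 273. Same-numbered samples of the sexes share a number in the labels, and whether they also share a batch is not stated. Correlations of their deviations were -0.0193, -0.00823 and -0.000805, which cannot settle this. The edgeR fit with a replicate block called 0 genes, with 2954 at an unadjusted p under 0.05. The count of members called stayed at 0 except for 1 (*Cdk6*) with DESeq2 and with library size alone. Of 569 values of the 39 members tested, under up to 15 alternatives each, 55 reversed, in 18 members, of which 7 (*Mcm2*, *Mcm3*, *Tyms*, *Rb1*, *Bub1b*, *Kif11* and *Plk1*) reversed with library size alone. *Rb1* was at -0.073 with library size alone and *Ccnd1* at 0.0021 with the replicate block. *Ccnb1* turned without male replicate 2 (-0.11 to 1.55 over the samples left out), *Ccnd1* without female replicate 1, female replicate 4 or male replicate 3 (-0.11 to 0.0703), and *Ccne2* without female replicate 3 or male replicate 2 (-0.15 to 0.045). The summed replication genes averaged 144 CPM over females and 161 CPM over males, and 155 and 146 CPM with library size alone, which turns their order. The summed inhibitors averaged 232 CPM over females and 256 CPM over males, and 246 and 231 CPM with library size alone, and when single females were left out the female mean was 179 to 299 CPM. The cause of these shifts was not tested.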
